A study of Homo sapiens with 6 samples.

Results

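The genes described here are 10 components of the NRF2 antioxidant pathway, chosen by name and matched through the symbol column of the authors' merged count table, which held all 10. The per-library files count 58037 gene IDs. They are the transcription factor NRF2 (gene NFE2L2), its inhibitor KEAP1, and 8 antioxidant genes: NQO1, HMOX1, GCLC, GCLM, SLC7A11, TXNRD1, SRXN1 and GPX4. Their RNA was measured by sequencing of total RNA in OVCAR8, a long-established cell line from a human ovarian carcinoma. The relaxin-2 group holds 3 libraries, numbered 1 to 3, from cells given recombinant human relaxin-2 (RLN2), a peptide hormone of the insulin superfamily, at 50 ng/mL for 8 hours. The untreated group holds 3 libraries, numbered 2 to 4, from cells of the same line, and both groups had been kept without serum for 16 hours beforehand. The labels give no vehicle for the untreated cells and do not say whether the triplicates were separate cultures, so p-values measure only the spread between these libraries, which may be technical. All libraries come from this 1 line, and no batch is given in the labels.

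NRF2 is a basic leucine zipper factor that is made continuously and, in unstressed cells, is bound by KEAP1 and passed to a CUL3 ubiquitin ligase for degradation. Electrophiles and oxidants modify cysteines of KEAP1, NRF2 escapes degradation, pairs with a small MAF protein and binds antioxidant response elements (AREs) near its target genes. Most of this control acts on the protein, so the NFE2L2 transcript is not itself a readout of NRF2 activity, whereas NQO1, GCLM, TXNRD1 and SRXN1 are widely used as target readouts. Ovarian and other carcinoma cells are known to use these enzymes to keep glutathione and thioredoxin reduced.

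The ARE core is shown first because it is the element through which the pathway reaches its targets. The motif TGACNNNGC was searched on both strands of RefSeq promoter windows (GRCh38.p14), each running from 250 bases before to 50 bases after an annotated start. Of 35116 windows, 13.3% held it. Of the 10 members 8 had windows, 13 in all, and HMOX1 and SLC7A11 had none. At least 1 core was held by 4 of these windows, belonging to GCLM, TXNRD1 and KEAP1. Sequence farther from a start was not searched, so a window without a core does not show that the gene lacks an ARE. In the lines below the core is in capitals and is read on the strand that carries it. The GCLM site is chr1:93909446-93909474 on the plus strand. The TXNRD1 sites shown, from 2 of its annotated windows, are chr12:104215670-104215698 on the plus strand and chr12:104286920-104286948 on the minus strand. The KEAP1 site shown is chr19:10502784-10502812 on the plus strand. The core can overlap the AP-1 motif TGACTCA, which was in 0 of the 6 stretches of 29 bases around a core, 4 of which are shown.
GCLM: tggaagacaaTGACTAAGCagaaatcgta
TXNRD1, window upstream: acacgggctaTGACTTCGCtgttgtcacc
TXNRD1, window downstream: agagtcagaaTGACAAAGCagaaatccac
KEAP1: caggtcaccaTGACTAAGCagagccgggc
GCLM and the KEAP1 site shown carried the same core letters, while another KEAP1 site (chr19:10502807-10502835, minus strand) carried TGACACGGC. A match is a description of these letters and does not show that a protein binds there.

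The data set as a whole gave 11939148 to 22426768 gene reads per library, and the 10 members took 0.215% to 0.263% of them. Counts are given as CPM (counts scaled to a common library size of 1e6), scaled by the TMM method, and were tested over 16740 genes. No gene passed a Benjamini-Hochberg adjusted p under 0.05 in edgeR's quasi-likelihood test (0 called, or 0% of tested genes), and DESeq2 and limma-voom also called 0. In each group the library numbered 2 stood apart. In untreated replicate 2 the mean GC content of its reads' transcripts was 46.3%, against 47.4% to 47.9% in the other 5 libraries, and 0.263% of its reads came from RN7SK, RN7SL1 and RN7SL2, against 0.676% to 0.926%. In relaxin-2 replicate 2, the library with the fewest gene reads, 27.0% of reads were multimapping, against 5.31% to 6.19% in the others, and mitochondrial genes took 5.37% of gene reads, against 0.859% to 1.41%. Without relaxin-2 replicate 2 the tested members kept their signs. Among markers of other cell types, 6 blood-cell genes summed to 0.390 to 0.545 CPM in relaxin-2 and 0.360 to 3.00 CPM in untreated libraries, with CD3E at 0. Of the 3.00 CPM, in untreated replicate 4, the globin gene HBB made up 2.25 CPM. The 8 fibroblast and endothelial genes summed to 20.1 to 21.6 CPM in relaxin-2 and 12.2 to 21.0 CPM in untreated libraries, with DCN at 0, and most of this was PDGFRB. Epithelial and ovarian markers, among them KRT8, KRT18 and PAX8, summed to 2365 to 2872 CPM in relaxin-2 and 1498 to 2565 CPM in untreated libraries, and the ovarian marker MUC16 had 4 reads in all.

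Reads were counted for 9 of the 10 members in every library. SRXN1 had 1 read in all, which does not show absence, as 85.0% of its exon bases are shared with another annotated gene. No difference after relaxin-2 was called for any of the 9 tested members (0 of 9 called by edgeR, adjusted p = 0.408 to 0.577). Their fitted differences fell into 2 classes. NFE2L2 and 5 of its targets (NQO1, GCLC, GCLM, SLC7A11 and TXNRD1) had small negative values, between -0.20 and -0.09 on the log2 scale. KEAP1, HMOX1 and GPX4 had positive values between 0.44 and 0.48, so 3 of 9 were positive, against 47.8% of all tested genes. At an unadjusted p under 0.05 there were 2 members, NQO1 on the lower and HMOX1 on the higher side, and 10.8% of all tested genes reached this level, 4.52% on the lower and 6.30% on the higher side. With DESeq2 the 1 member at this level was KEAP1, with 10.0% of all tested genes, and with limma-voom it was HMOX1, with 12.3%.

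Per kilobase of annotated exon, TXNRD1 was the most abundant member. TXNRD1, the cytosolic thioredoxin reductase, averaged 128 ± 5.40 RPKM (CPM divided by exon length in kilobases; mean ± SD, n = 3 libraries per group here and below) in relaxin-2 and 136 ± 8.92 RPKM in untreated cells. SLC7A11 followed with 76.7 ± 3.37 RPKM in relaxin-2 and 88.4 ± 10.1 RPKM in untreated cells, and NQO1 with 64.2 ± 3.12 RPKM in relaxin-2 and 72.4 ± 4.75 RPKM in untreated cells. These leading members did not overlap one another in either group. A middle class held NFE2L2 (23.3 ± 0.74 RPKM in relaxin-2, 25.5 ± 2.79 RPKM in untreated cells), GCLM (21.4 ± 1.20 and 23.4 ± 2.62 RPKM), GPX4 (20.2 ± 2.79 and 14.5 ± 5.37 RPKM) and KEAP1 (18.1 ± 1.81 and 13.2 ± 4.30 RPKM), in each pair the relaxin-2 value first and the untreated value second. In relaxin-2 libraries GCLM overlapped GPX4, and GPX4 overlapped KEAP1. In untreated libraries NFE2L2 overlapped GCLM, GPX4 overlapped KEAP1, and KEAP1 overlapped GCLC. GCLC (9.15 ± 0.29 RPKM in relaxin-2, 9.74 ± 1.03 RPKM in untreated cells) and HMOX1 (3.70 ± 0.38 RPKM in relaxin-2, 2.71 ± 0.61 RPKM in untreated cells) were the lowest of the tested members. Exon length here is that of all annotated isoforms together, so a gene with many unused exons appears lower than it is.

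**Figure D1:**
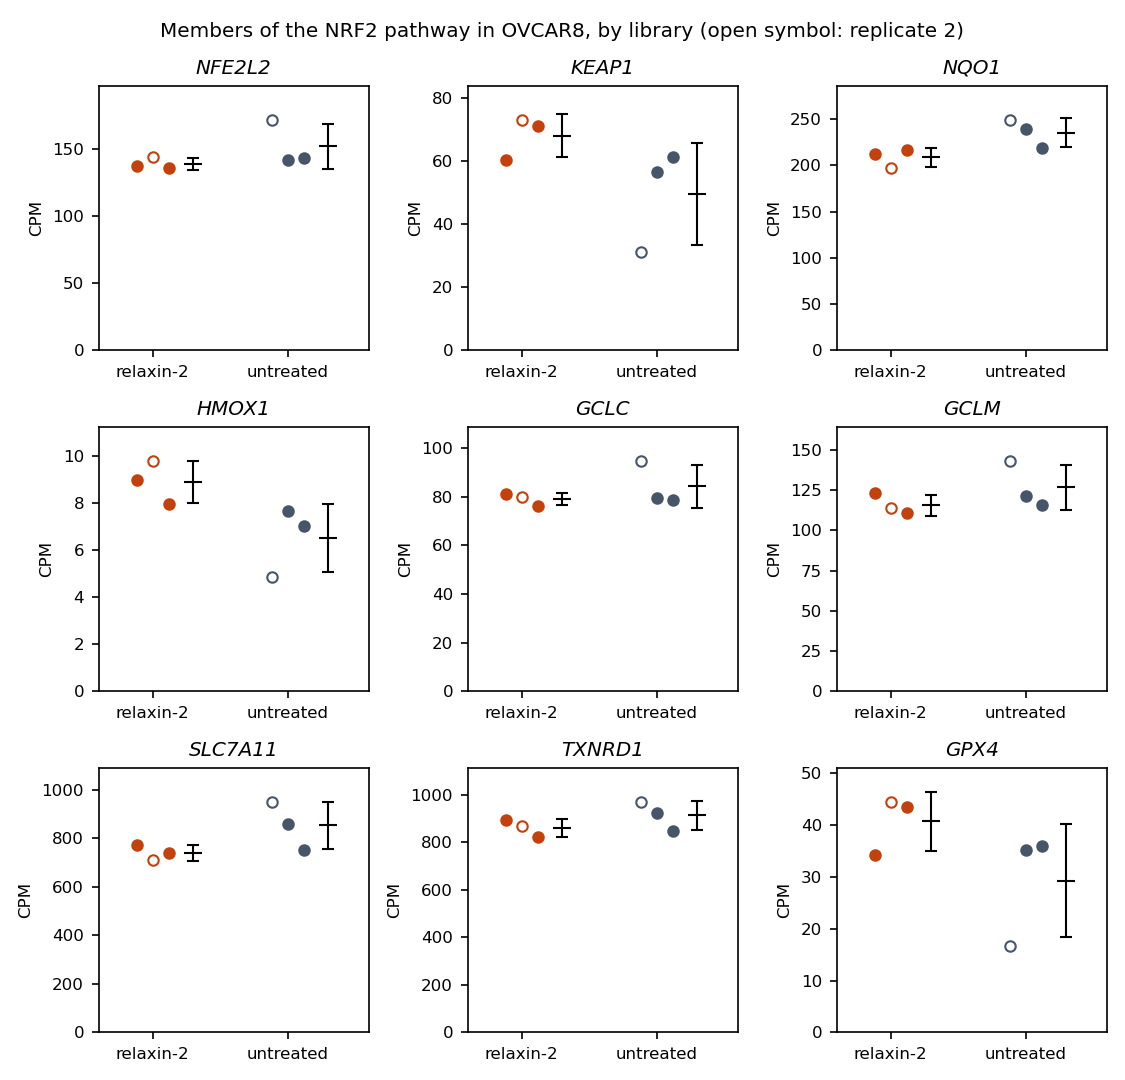
CPM of the 9 tested members (y axis, from 0) in each library, with relaxin-2 on the left and untreated on the right of each panel, points for libraries (open for replicate 2) and a bar with whiskers for mean ± SD of 3 libraries. In untreated replicate 2 KEAP1 was at 31.2 and GPX4 at 16.7 CPM, below every other library.

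The factor and its inhibitor had values of opposite sign. NFE2L2 (chromosome 2, 177227595 to 177392697, GRCh38) had 137, 144 and 136 CPM in relaxin-2 replicates 1 to 3, against 172, 142 and 144 CPM in untreated replicates 2 to 4. Untreated replicate 2 was the high library, and the other untreated libraries lay within or next to the relaxin-2 range. The log2 fold change was -0.13 ± 0.09 (SE), a fold of 0.914 with a 95% interval of 0.795 to 1.05. Of its exon bases 17.6% lie also in an exon of another gene on the same strand, and reads there are not assigned to either gene. KEAP1, the substrate adaptor that presents NRF2 for degradation (chromosome 19, 10486120 to 10503741), had 60.2, 72.8 and 71.0 CPM in relaxin-2 libraries, against 31.2, 56.4 and 61.3 CPM in untreated libraries. Here untreated replicate 2 was the low library, and untreated replicate 4 lay above relaxin-2 replicate 1, so the groups overlapped. The log2 fold change was 0.45 ± 0.23, a fold of 1.37 with an interval of 0.953 to 1.97, and it was 0.21 without untreated replicate 2.

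The ratio of KEAP1 to NFE2L2 RNA within a library, per kilobase, is free of scaling between libraries. It was 0.696, 0.802 and 0.828 in relaxin-2 libraries, against 0.289, 0.632 and 0.679 in untreated libraries. All relaxin-2 libraries lay above all untreated libraries, by a mean of 0.63 on the log2 scale (two-sided exact permutation test over 20 assignments, p = 0.10, the smallest this design allows, and 0.20 after Benjamini-Hochberg adjustment over the 2 ratios computed). The difference was 0.24 without untreated replicate 2 and 0.21 with both libraries numbered 2 left out. The share of other gene pairs whose ratio separates the groups in this way was not computed. The GC content was 61.6% for KEAP1 and 45.2% for NFE2L2, and its part in the difference of the ratio was not tested. In the fit with offsets for GC content and transcript length, described below, the log2 fold change was 0.01 for KEAP1 and -0.02 for NFE2L2.

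NQO1, a 2-electron quinone reductase and the classic NRF2 target (chromosome 16, 69706996 to 69726951), had 212, 197 and 217 CPM in relaxin-2 libraries, against 249, 239.6 and 218 CPM in untreated libraries. All relaxin-2 libraries lay below all untreated libraries, but relaxin-2 replicate 3 and untreated replicate 4 differed by less than the spread within either group. Such separation on the lower side was seen in 10.5% of tested genes. The log2 fold change was -0.17 ± 0.07, a fold of 0.887 with an interval of 0.788 to 0.997 (edgeR adjusted p = 0.408). Over the 17 alternative settings it ran from -0.24 to -0.09.

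HMOX1, heme oxygenase 1, which breaks heme down to biliverdin, carbon monoxide and iron (chromosome 22, 35380361 to 35394214), was the member with the fewest reads among those tested. It had 161, 112 and 175 reads in relaxin-2 libraries, against 108, 174 and 122 reads in untreated libraries. In CPM these were 8.96, 9.76 and 7.95 in relaxin-2 libraries, against 4.86, 7.64 and 7.03 in untreated libraries. The groups did not overlap, which on the higher side held for 10.8% of tested genes, and untreated replicate 2 was again the low library. The log2 fold change was 0.44 ± 0.19, a fold of 1.36 with an interval of 1.00 to 1.85, and it was 0.26 without untreated replicate 2. HMOX1 is controlled by the repressor BACH1 as well as by NRF2. BACH1 itself had a log2 fold change of -0.13 ± 0.08 and overlapping groups.

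The glutathione-synthesis members had nearly equal levels in the 2 groups. GCLC, the catalytic subunit of glutamate-cysteine ligase (chromosome 6, 53497341 to 53616970), had 81.1, 80.0 and 76.3 CPM in relaxin-2 libraries, against 94.4, 79.6 and 78.6 CPM in untreated libraries. Apart from untreated replicate 2 the libraries of both groups lay within a few CPM of each other. GCLM, the modifier subunit that lowers the feedback inhibition of the enzyme (chromosome 1, 93885205 to 93909456), had 123, 114 and 111 CPM in relaxin-2 libraries, against 143, 121 and 116 CPM in untreated libraries. The log2 fold changes were -0.09 ± 0.09 for GCLC and -0.13 ± 0.09 for GCLM, and without untreated replicate 2 they were -0.00094 and -0.04. Within a library the GCLC to GCLM ratio per kilobase was 0.413, 0.441 and 0.433 in relaxin-2, against 0.414, 0.412 and 0.424 in untreated libraries. The ranges overlapped and the mean difference was 0.04 on the log2 scale (two-sided exact permutation test, p = 0.30, also 0.30 adjusted).

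SLC7A11, the cystine-importing chain of system xc- (chromosome 4, 138164097 to 138242349), had 774, 709 and 738 CPM in relaxin-2 libraries, against 947, 857 and 754 CPM in untreated libraries. Untreated replicate 4 lay between relaxin-2 replicates 1 and 3, so the groups overlapped. Its log2 fold change of -0.20 ± 0.10 was the lowest among the tested members, a fold of 0.868 with an interval of 0.745 to 1.01, and it was -0.12 without untreated replicate 2. GPX4, the glutathione peroxidase that reduces lipid hydroperoxides and guards against ferroptosis (chromosome 19, 1103926 to 1106791), had 34.2, 44.3 and 43.5 CPM in relaxin-2 libraries, against 16.7, 35.1 and 35.9 CPM in untreated libraries. Relaxin-2 replicate 1 lay below 2 of the untreated libraries. The log2 fold change of 0.48 ± 0.27 was the highest and the least precise among the tested members, with a fold interval of 0.906 to 2.14, and it was 0.19 without untreated replicate 2.

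The thioredoxin arm was represented by the most abundant member and by one with almost no reads. TXNRD1 (chromosome 12, 104215779 to 104350305) had 891, 867 and 819.7 CPM in relaxin-2 libraries, against 967, 923 and 848 CPM in untreated libraries. The groups overlapped, and the log2 fold change was -0.09 ± 0.08, a fold of 0.941 with an interval of 0.831 to 1.07. It was -0.04 without untreated replicate 2, -0.14 without untreated replicate 4 and -0.05 without relaxin-2 replicate 3. SRXN1, sulfiredoxin, which repairs over-oxidised peroxiredoxins (chromosome 20, 646615 to 653370), had 0 reads in each relaxin-2 library and 1 read in all untreated libraries, in replicate 3. Of its 2698 annotated exon bases 85.0% lie also in exons of AL121758.1, a gene annotated on the same strand (646626 to 675800), which had 0 reads in all libraries. STAR assigns a read to a gene only where no other gene on the counted strand shares it, and the other 406 exon bases of SRXN1 are not shared. This overlap is that of GENCODE 29, and the annotation behind the authors' counts is not known, so whether the overlap sets the count was not tested. With 1 read in all, SRXN1 was too low to be tested.

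**Figure D2:**
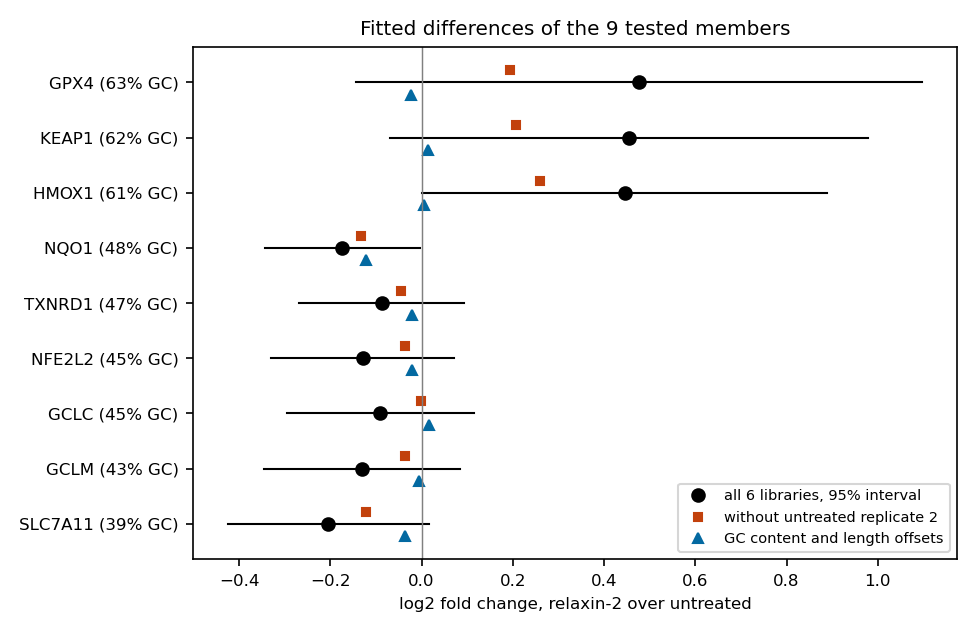
Log2 fold change of relaxin-2 over untreated (x axis) for the 9 tested members, ordered by transcript GC content from the top, with the fit of all 6 libraries and its 95% interval (circle, line), the fit without untreated replicate 2 (square) and the fit with GC content and length offsets (triangle). KEAP1, HMOX1 and GPX4 lie between 0.44 and 0.48 in the first fit and between -0.024 and 0.014 with the offsets.

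The precision of these comparisons differed between the 2 classes. For the 6 members with negative values the 95% intervals of the fold ran from 0.745 at the lowest to 1.08 at the highest, so for each of them a fold of 1.5 or more in either direction lay outside its interval. For KEAP1, HMOX1 and GPX4 the intervals ran from 0.906 to 2.14. A p above the threshold does not show that these members are equal in the groups.

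The 2 classes also differed in transcript GC content, which the choice of members did not use. The 6 members with negative values had 38.6% to 48.4% GC, averaged over their annotated transcripts, and KEAP1, HMOX1 and GPX4 had 60.8% to 63.4%. Over all tested genes the median log2 fold change was -0.16 in the lowest of 4 equal bins of GC content (25.7% to 43.4%), -0.09 in the second, 0.06 in the third and 0.40 in the highest (55.9% to 74.2%). In the lowest bin 10.7% of genes had a positive value and in the highest bin 93.5% did. Each library's smooth trend on GC content and transcript length was then removed by offsets. With them KEAP1 was 0.01, HMOX1 0.0063 and GPX4 -0.02, and NFE2L2, GCLC, GCLM, SLC7A11 and TXNRD1 lay between -0.04 and 0.02. The trend was fitted over tested genes without regard to group. The offsets therefore also remove any treatment difference that follows GC content or length. The source of the trend was not tested. NQO1 was -0.12 with these offsets (edgeR adjusted p = 0.453). The median over the tested members was -0.09 in the main fit and -0.02 with the offsets, beside -0.01 and 0.0062 over all tested genes.

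**Figure D3:**
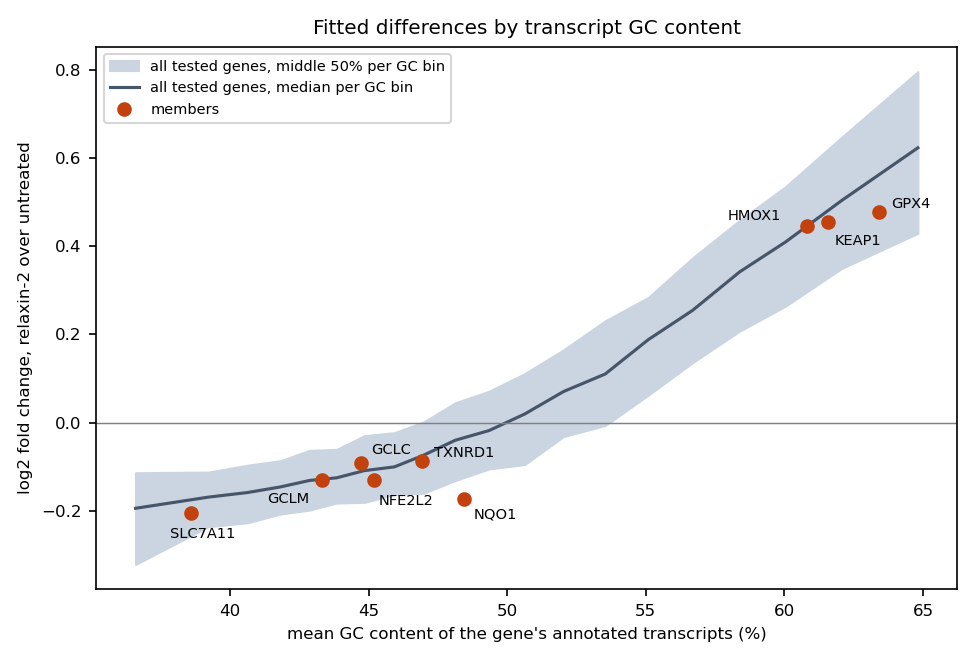
Log2 fold change of relaxin-2 over untreated (y axis) against mean GC content of a gene's annotated transcripts in percent (x axis) for the 9 tested members (points), over the median (line) and middle 50% (band) of all tested genes in 20 bins of equal size. The line climbs from left to right, and of the members NQO1 is the one outside the band. By construction the band leaves out 50% of the tested genes in each bin, so a place outside it is common.

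By library, the members sorted by the sign of their fold change are described here without a test, since these libraries set the signs. The median deviation from a gene's own mean, in log2 CPM, was -0.02, -0.06 and -0.10 in relaxin-2 replicates 1 to 3 and 0.23, 0.03 and -0.05 in untreated replicates 2 to 4 for the 6 members with negative fold changes. For KEAP1, HMOX1 and GPX4 it was 0.08, 0.37 and 0.32 in relaxin-2 and -0.86, 0.02 and 0.10 in untreated libraries. Untreated replicate 2 held the extreme value of both classes, and untreated replicates 3 and 4 lay near relaxin-2 replicate 1. As a description over the 6 libraries, which share these depth and GC differences, KEAP1 and GPX4 had a Pearson correlation of 0.996 and NFE2L2 and GCLC one of 0.95, while KEAP1 and NFE2L2 had -0.91. Among the 13028 tested genes with a mean log2 CPM of at least 1, those whose log2 CPM was most like that of NFE2L2 over the 6 libraries were E2F6, a transcriptional repressor of the E2F family (Pearson r = 0.99), RABGAP1, a GTPase-activating protein (0.99), and GPR63, an orphan receptor (0.99).

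**Figure D4:**
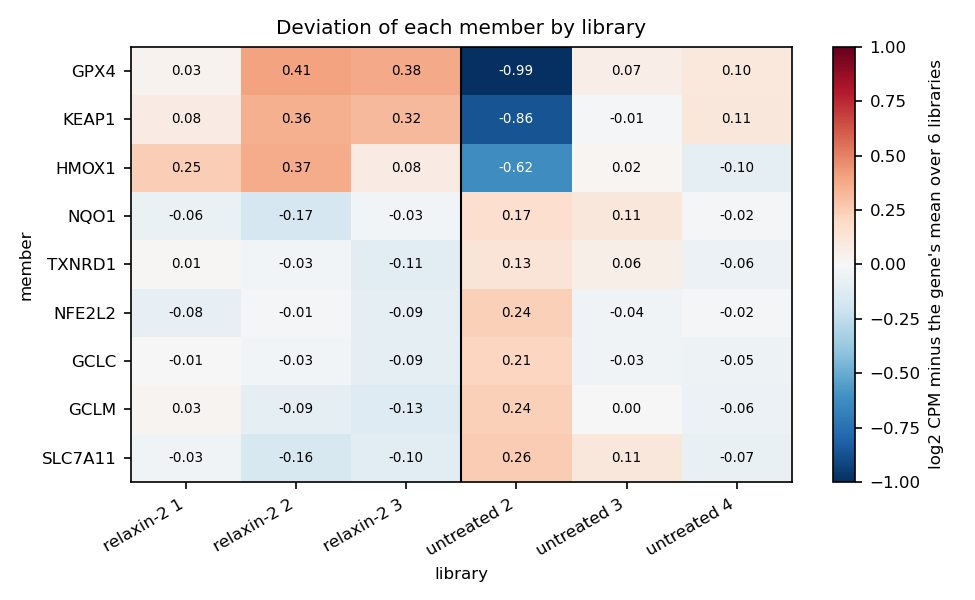
Deviation of each member (rows, by GC content from the top) from its mean log2 CPM over 6 libraries (colour and number), with relaxin-2 libraries left of the line and untreated libraries right of it. Untreated replicate 2 shows -0.99 for GPX4, -0.86 for KEAP1 and -0.62 for HMOX1.

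The rest of the pathway was read from 9 lists of 141 further genes, 123 of them tested. No difference was called among them (0 called by edgeR, smallest adjusted p = 0.408), and 69 had positive and 54 negative values. An unadjusted p under 0.05 was reached by 16 (13.0%), against 10.8% of all tested genes. Of these 16, 13 were on the higher side. By GC content, 37 of the 40 listed genes in the highest of the 4 bins had positive values, and 16 of the 18 in the lowest bin had negative values. The lists below are described by these counts and by the genes with the smallest p in each. None of the genes named passed the test over all genes. Groups that did not overlap were seen in 21.4% of all tested genes, and a choice by smallest p favours such genes. Among the genes so chosen, MAFK, PGD, OSGIN1, PRDX5, TXN2, TFRC, ASNS and NOX4 had groups without overlap. The groups overlapped for NFE2L1, CHAC1, GGT1, BLVRB, ALAS1, SLC7A5, MSRB1, SELENOW, SLC7A1 and CYBA.

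Among 15 regulators and partners of NRF2, 7 had positive and 8 negative values, with a median of -0.01. MAFK, a small MAF partner of NRF2, averaged 8.67 ± 1.54 CPM in relaxin-2 and 4.67 ± 1.74 CPM in untreated cells (log2 fold change 0.90 ± 0.29), without overlap. NFE2L1, the related factor NRF1 that controls proteasome genes, averaged 252 ± 22.8 CPM in relaxin-2 and 197 ± 32.6 CPM in untreated cells (0.36 ± 0.13). CUL3, the ligase scaffold, had -0.19 ± 0.09, and SQSTM1, the autophagy receptor that can sequester KEAP1, had 0.36 ± 0.20. With the offsets MAFK was 0.32 and NFE2L1 0.13.

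Of 23 tested genes among other NRF2 targets, 15 had positive and 8 negative values, with a median of 0.12. PGD, an NADPH-producing enzyme of the pentose phosphate pathway, averaged 197 ± 12.2 CPM in relaxin-2 and 147 ± 28.7 CPM in untreated cells (0.43 ± 0.13), without overlap. Its value stayed between 0.30 and 0.63 in all 17 alternatives, 0.30 with the offsets included. TKT and TALDO1, enzymes of the same pathway, had 0.50 ± 0.21 and 0.29 ± 0.16, in that order. Their GC content was 58.7% and 54.9%. Untreated replicate 2 was the low library for both. TKT had 117, 202 and 216 CPM in untreated replicates 2 to 4, and TALDO1 had 52.3, 75.7 and 76.3 CPM. OSGIN1, an oxidative stress-induced growth inhibitor, had only 1.43 ± 0.35 CPM in relaxin-2 and 0.80 ± 0.16 CPM in untreated cells (0.81 ± 0.28), and was 0.41 with the offsets. The aldo-keto reductases AKR1C1, AKR1C2 and AKR1C3 averaged 3.26, 0.776 and 3.15 CPM in relaxin-2 and 3.32, 1.13 and 3.64 CPM in untreated cells. They are related in sequence, and reads that match more than 1 of them are lost in this counting. How many reads each gene lost was not tested.

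In glutathione supply and use, 11 of 23 tested genes had positive and 12 negative values, with a median of -0.01. CHAC1, which degrades glutathione, averaged 21.3 ± 3.88 CPM in relaxin-2 and 13.6 ± 4.82 CPM in untreated cells (0.65 ± 0.26), with overlap. GGT1, which splits extracellular glutathione, averaged 1.85 ± 0.35 CPM in relaxin-2 and 1.10 ± 0.46 CPM in untreated cells (0.77 ± 0.33). GSR, glutathione reductase, had 0.07 ± 0.07, and GSS, the second enzyme of glutathione synthesis, 0.19 ± 0.11. With the offsets CHAC1 was 0.16 and GGT1 0.33.

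Of 14 tested thioredoxin and peroxiredoxin genes 5 had positive and 9 negative values, with a median of -0.12. PRDX5, a peroxiredoxin of mitochondria and peroxisomes, averaged 128 ± 12.9 CPM in relaxin-2 and 81.4 ± 25.1 CPM in untreated cells (0.66 ± 0.21), without overlap, and was 0.25 with the offsets. TXN2, the mitochondrial thioredoxin, averaged 24.6 ± 2.42 CPM in relaxin-2 and 18.2 ± 3.51 CPM in untreated cells (0.43 ± 0.16), and was 0.16 with the offsets. PRDX3, another mitochondrial peroxiredoxin, had -0.17 ± 0.07, and PRDX1, an abundant cytosolic one, -0.12 ± 0.08. The GC content was 60.7% for PRDX5 and 56.9% for TXN2, and 41.4% for PRDX3 and 49.9% for PRDX1.

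Among 9 tested superoxide, peroxide and heme enzymes 6 had positive and 3 negative values, with a median of 0.10. BLVRB, a biliverdin reductase downstream of heme oxygenase, averaged 9.65 ± 1.54 CPM in relaxin-2 and 6.52 ± 2.02 CPM in untreated cells (0.57 ± 0.24). ALAS1, the first enzyme of heme synthesis, averaged 124 ± 3.32 CPM in relaxin-2 and 116 ± 7.0 CPM in untreated cells (0.10 ± 0.07). BLVRB was 0.13 and ALAS1 0.04 with the offsets. SOD1 (-0.06 ± 0.10), SOD2 (-0.03 ± 0.08) and catalase (CAT, -0.06 ± 0.09) had values near 0, with overlapping groups.

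In the cystine transport and ferroptosis list 4 of 11 tested genes had positive and 7 negative values, with a median of -0.02. SLC3A2, the heavy chain that pairs with SLC7A11, had 0.18 ± 0.13. TFRC, the transferrin receptor, averaged 621 ± 34.4 CPM in relaxin-2 and 705 ± 61.3 CPM in untreated cells (-0.18 ± 0.09), without overlap. SLC7A5, another partner of SLC3A2, averaged 132 ± 21.2 CPM in relaxin-2 and 90.8 ± 33.9 CPM in untreated cells (0.54 ± 0.27). With the offsets TFRC was -0.03 and SLC7A5 0.13. Among 12 genes of the ATF4 program, ATF4 included, 10 had positive and 2 negative values. This program also drives SLC7A11. The median of these genes was 0.11, and it was -0.03 with the offsets. ASNS, asparagine synthetase, averaged 266 ± 9.92 CPM in relaxin-2 and 302 ± 15.4 CPM in untreated cells (-0.18 ± 0.07), without overlap, and 44.6% of its exon bases lie also in another gene. SLC7A1, a cationic amino acid transporter, averaged 299 ± 23.7 CPM in relaxin-2 and 253 ± 25.9 CPM in untreated cells (0.24 ± 0.10), and ATF4 itself had 0.04 ± 0.07. ASNS was -0.08 and SLC7A1 0.03 with the offsets.

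TXNRD1 and GPX4 are selenoproteins, and 10 further genes of selenoprotein synthesis and function were tested, 6 with positive and 4 with negative values and a median of 0.10. MSRB1, a methionine sulfoxide reductase, averaged 15.0 ± 2.57 CPM in relaxin-2 and 9.18 ± 3.48 CPM in untreated cells (0.71 ± 0.28), and was 0.38 with the offsets. SELENOW averaged 23.7 ± 1.45 CPM in relaxin-2 and 20.5 ± 2.60 CPM in untreated cells (0.21 ± 0.13), and was -0.04 with the offsets. SECISBP2, which reads the selenocysteine signal in the mRNA, had -0.10 ± 0.07. Among sources of oxidants, 5 of 6 tested genes had positive and 1 had a negative value, with a median of 0.09. NOX4, a hydrogen peroxide-producing NADPH oxidase, had 0.779, 1.05 and 0.727 CPM in relaxin-2 libraries, against 2.21, 1.32 and 1.33 CPM in untreated libraries. These values rest on few reads: 14, 12 and 16 in relaxin-2 libraries, against 49, 30 and 23 in untreated libraries. All relaxin-2 libraries lay below all untreated libraries, which held for 10.5% of tested genes. The log2 fold change of -0.97 ± 0.30 was -0.85 with the offsets and -0.68 without untreated replicate 2 (edgeR adjusted p = 0.408 in the main fit). CYBA, the membrane partner of NOX4, averaged 22.1 ± 4.72 CPM in relaxin-2 and 12 ± 6.34 CPM in untreated cells (0.89 ± 0.39), with overlap, and was 0.37 with the offsets.

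**Figure D5:**
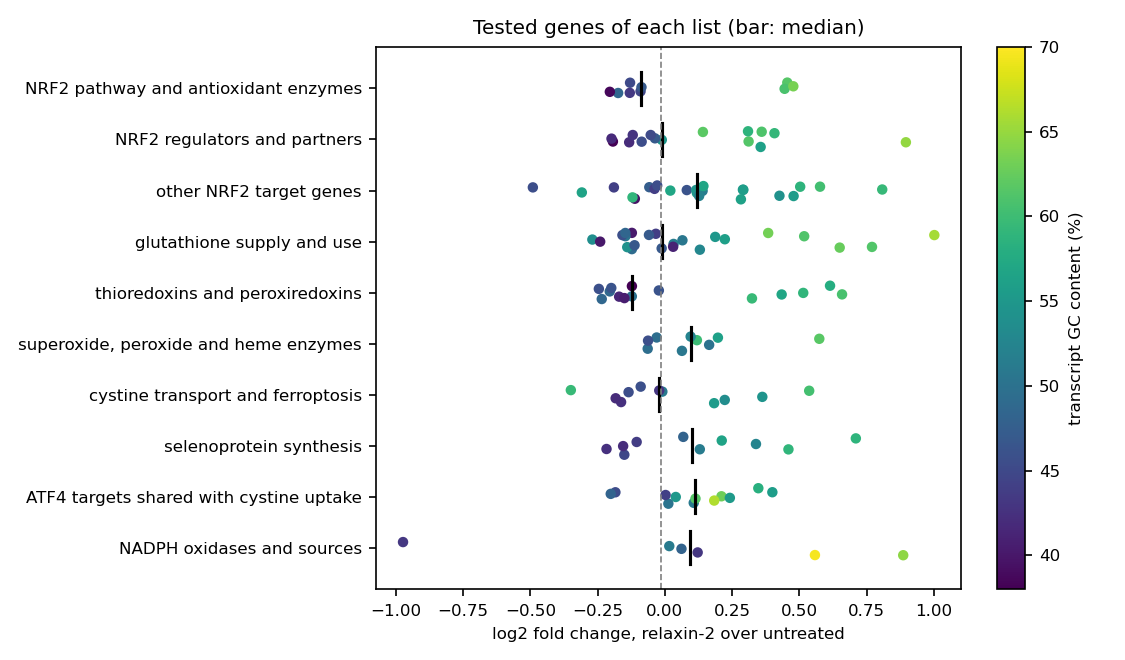
Log2 fold change of relaxin-2 over untreated (x axis) for the tested genes of each list (rows), coloured by transcript GC content in percent, with a bar at each list's median and a dashed line at the median of all tested genes. Points on the right are mostly of high and points on the left mostly of low GC content, and NOX4 at -0.97 is the leftmost point.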

How the data were processed

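The libraries were made from total RNA with a stranded kit, per the labels' protocols. The authors deposited unnormalized gene counts, with STAR and hg38 named in the submitters' processing notes. STAR's version was not stated and its annotation was not given in the sources used here. Reverse-strand counts were used (17.8 to 19.8 times the forward column), and the authors' merged table equalled it for all 24635 shared IDs. Lines naming no gene were left out of library sizes: 6.73% to 17.4% of reads were unmapped, 5.31% to 27.0% multimapping, 17.5% to 32.0% without a feature and 2.36% to 4.18% ambiguous. STAR drops multimapping reads and reads shared by genes. No 2 libraries agreed within sampling noise (smallest chi-square per degree of freedom 2.47, for relaxin-2 replicate 1 and untreated replicate 4). The closest pair within a group was relaxin-2 replicates 1 and 3, at 5.64. Each library was counted as 1 sample, but these values do not show that they were separate cultures.

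The test was edgeR 4.0.16 after filterByExpr and TMM scaling (quasi-likelihood, two-sided, adjusted p under 0.05, treatment the only term, all 6 libraries) in R 4.3.3. DESeq2 1.42.0, limma-voom (limma 3.58.1), other scalings, filters, strands and tables, GC content and length offsets (natural splines, 5 degrees of freedom each, known for 99.6% of genes), left-out libraries and a replicate block were alternatives. Symbols, lengths, GC content and exon overlaps came from GENCODE 29 on GRCh38, which matched 57433 of 58037 IDs, and promoter windows from RefSeq. At these depths the median standard error was 0.16 over tested genes and 0.09 for genes whose mean log2 CPM reached 5. The test was checked on simulated counts. Members and lists were chosen with earlier results of these data known. Named genes are the members, the 2 tested genes with the smallest p of each list, and the 3 most like NFE2L2; further listed genes (BACH1, CUL3, SQSTM1, TKT, TALDO1, AKR1C1, AKR1C2, AKR1C3, GSR, GSS, PRDX1, PRDX3, SOD1, SOD2, CAT, SLC3A2, ATF4 and SECISBP2) were added for their roles after values were seen. Python 3.11.15, pandas 2.3.3 and matplotlib 3.10.9 prepared tables and figures.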

Additional observations from a re-analysis of the deposited data

How the results depend on the processing

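Of the members, 0 were called in the main fit and in every alternative run. Over all tested genes the count was 0, except 120 with no filter on low counts, 1 with the replicate number as a block and 3 with both libraries numbered 2 left out; leaving out each library in turn gave 0 to 3, with 3 without untreated replicate 2. With no filter PRDX5 (edgeR adjusted p = 0.0245) and PGD (0.0481) passed, both higher, and their adjusted p over the alternatives ran up to 0.766. At an adjusted p under 0.10 the main fit called 0 genes. In 16 of the 17 alternatives 3 members had positive values, and in the other, with both libraries numbered 2 left out, 4 did. GCLC turned to 0.015 under offsets for GC content and length and to 0.00013 with both libraries numbered 2 left out. With the offsets GPX4 turned to -0.024, SELENOW to -0.036, RABGAP1 to 0.066 and GPR63 to 0.029. The cause of these turns was not tested. The offsets moved 27 of the 30 named and tested genes by over 1.5 times, and leaving out untreated replicate 2 moved 23. The numbers 2 and 3 are shared by the groups, but the design text names no pairing, so the number was not taken as one. Deviations of libraries of the same number had a correlation of -0.33 for number 2 and 0.13 for number 3. Both libraries numbered 2 stood apart from the rest, so these correlations cannot decide whether libraries were paired. Under the block KEAP1 was 0.77, GPX4 0.85 and SLC7A11 -0.32. GPX4 (SE 0.27) and KEAP1 (0.23) are the least precise of the tested members, followed by HMOX1 (0.19), which has 108 to 175 reads per library, and SRXN1, with 1 read in all, allows no comparison.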

Other observations

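Several inducible antioxidant genes were at or near 0 reads in OVCAR8 in both groups. ALDH3A1 and the iron exporter SLC40A1 had 0 reads in all 6 libraries, GPX2, a glutathione peroxidase of the gut, had 1 read, and AKR1B10 and GSTM1 had 4 reads each. The oxidases NOX1 and NOX3 and the oxidase subunit NCF1 also had 0 reads. A floor of 3 counts among 113628275 gene reads corresponds to 0.0264 CPM. NCF1 and GSTM1 have near-identical copies, so their counts are uncertain.

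The globin gene HBB, included as a blood marker, had 39 reads in untreated replicate 4, against 0 to 1 reads in each of the other libraries. The selenium carrier SELENOP had 14 reads in the same library, against 0 to 4 in the others, and COL3A1 had 16, against 1 to 6.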
